A study of Homo sapiens with 6 samples.

Results

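The genes described here encode the plasma membrane and lysosomal carriers of amino acids in the solute carrier (SLC) families 1, 3, 6, 7, 36, 38 and 43. They were chosen by gene symbol alone, with 1 gene of family 7 left out by the rule, which gave 59 of the 22989 genes in the count table. Of these 59, 55 are transporter genes or their heavy chains, and 4 carry names ending in os, given to genes on the opposite strand next to a transporter. The question was how the carriers of amino acids differed between LINC00115 KD and WT paclitaxel (PTX)-resistant breast cancer stem cells.

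RNA was sequenced from 3 libraries labelled LINC00115 KD and 3 labelled WT, all from the PTX-resistant BCSC of MDA-MB-231, an established human cell line from a triple-negative breast cancer. LINC00115 is a long non-coding RNA. In the KD cells it was targeted by a short hairpin RNA (sh115), whereas the controls are called WT in the labels and the study speaks of a control hairpin (shC). BCSC are the cells of the line sorted for high aldehyde dehydrogenase activity, and both groups share the resistance to paclitaxel. The KD samples are numbered sh115-1 to sh115-3 in the labels, whereas the study uses sh115-1 and sh115-2 as names of different hairpins and gives sh115-2 as the hairpin of its RNA-seq comparison, so the labels by themselves leave the hairpin of each library unsettled. Nothing in the labels says that the replicates came from separate cultures, and p-values therefore measure the spread between these samples, which may be technical.

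The table holds 0 rows named LINC00115, so the knockdown could not be checked and every direction rests on the labels. Its 4648 Gm and 1129 Rik names, and Kap, are names of mouse genes. This conflicts with the human line and build in the labels and with the use of human promoter sequences. Symbols are printed as the table gives them. Libraries held between 36979221 and 38799331 counts. A list of 13 genes of breast cancer cell lines was not specific to this line, and it held hormone receptor genes (Esr1 and Pgr) and Erbb2. Vim and Cd44 had 32751 or more counts in every library, Epcam had 0 to 5 counts and Pgr 0 to 3. Of the 13 genes, 7 were higher and 1, Itga6, was lower in every KD library. Cdh1 had 2, 1 and 3 counts in WT and 22, 30 and 31 in KD, and Esr1 had 29, 26 and 24 against 105, 82 and 104. Markers of lung and kidney also moved with the groups. Of 14 lung genes, 13 were higher in every KD library, with a summed level of 8.29 to 8.52 CPM (counts per 1000000 of the scaled library total) in WT and 81.6 to 92.9 in KD, and 8 of them had 0 counts in all WT libraries. Of 15 kidney genes, 13 were higher, with 16.8 to 19.6 CPM in WT and 46.4 to 50.3 in KD, and 9 were at 0 in WT, while Cubn was lower in every KD library (log2 fold change -0.45). Of all genes tested, 37.8% were higher in every KD library and 37.8% lower. Their part in the results below was not tested.

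Amino acids cannot cross membranes unaided, and each SLC family moves a group of them by a different mechanism. Family 7 light chains work only when joined to a heavy chain of family 3, which brings them to the cell surface. The best known pair is LAT1, made of Slc7a5 and Slc3a2, which imports leucine and other large neutral amino acids in exchange for glutamine. Glutamine in turn enters through Slc1a5 and the sodium-coupled SNAT carriers of family 38, and arginine and lysine through Slc7a1. When amino acids are scarce, the kinase GCN2 raises translation of the transcription factor ATF4, which binds response elements of the form TGATGNAA together with C/EBP proteins and switches on carriers and synthetic enzymes. MYC, which binds CACGTG, is also known to raise several of these carriers in tumours.

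The genes past both thresholds with many counts were Slc7a1, Slc3a2, Slc7a5, Slc1a5 and Slc38a1, and the reference sequence around their transcription starts is shown first. RefSeq windows from 250 bases before to 50 bases after a start (GRCh38.p14) were matched by symbol, without regard to case, for 39 of the 55 transporter genes, with 60 windows in all. They are sequences of the human genes, whereas the table's symbols are in mouse style. TGATGNAA was searched on both strands. It was found in at least 1 window of 4 of the 5 matched genes past both thresholds upward, in 4 of their 10 windows. Slc43a3, Slc3a1 and Slc7a13, also past both thresholds upward, had no window. TGATGNAA was in a window of 1 of the 7 matched genes that rose by less. It was in 0 of the 8 matched genes that fell or were not called and in 1 of the 19 not tested, SLC1A3, which is not printed. Of all 35116 windows, 3.62% held it, and 4.46% of all genes did in any of their windows. The matches in the 5 genes that rose are given as stretches of 30 bases, 5′ to 3′ on the gene's strand, with the matched letters in capitals.
SLC7A1: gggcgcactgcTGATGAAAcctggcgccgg
SLC3A2: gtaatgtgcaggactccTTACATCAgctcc
SLC38A1: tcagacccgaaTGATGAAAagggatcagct
SLC1A5: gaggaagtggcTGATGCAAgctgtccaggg
SLC1A4: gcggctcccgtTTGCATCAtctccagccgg

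The match of SLC7A1 (chr13:29595663-29595692, minus strand) begins at base 8 after the start, counted with the first transcribed base as 1. That of SLC38A1 (chr12:46266502-46266531, minus strand) begins at base -4 and that of SLC1A4 (chr2:64989381-64989410, plus strand) at base -7, and both run across a start. In SLC3A2 (chr11:62881719-62881748, plus strand) it begins at base 38, and in SLC1A5 (chr19:46784893-46784922, minus strand) at base -97. SLC3A2 and SLC1A5 each have 3 windows and SLC38A1 and SLC1A4 have 2, and the match lies in 1 window of each.

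SLC7A5 held no TGATGNAA in its window, and its 250 bases before the start (chr16:87869508-87869757, minus strand) are printed because its row also rose over 2-fold. Capitals mark CACGTG, the letters known as an E-box, and CACGC, the reverse complement of GCGTG, a core of hypoxia response elements.
SLC7A5: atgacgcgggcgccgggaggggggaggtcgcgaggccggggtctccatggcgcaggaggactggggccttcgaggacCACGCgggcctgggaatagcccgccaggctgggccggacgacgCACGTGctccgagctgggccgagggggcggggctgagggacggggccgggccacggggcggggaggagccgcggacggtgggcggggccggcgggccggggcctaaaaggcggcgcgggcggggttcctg

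CACGTG was also found in a window of SLC1A5. The stretches are again 30 bases long, from chr16:87869620-87869649 and chr19:46787326-46787355, both on the minus strand.
SLC7A5: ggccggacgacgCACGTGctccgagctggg
SLC1A5: ggcgggagtggtCACGTGgacaggacgggg

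Over all windows, 7.26% held CACGTG, against 10 of the 60 windows of transporter genes. It was in windows of 2 of the 5 matched genes past both thresholds upward and of 2 of the 4 matched genes not called. The hypoxia cores ACGTG, which lies within CACGTG, and GCGTG are short and common, in 21.4% and 36.5% of all windows, and in 19 and 30 of the 60 windows of transporter genes. GCGTG was in windows of all 5 matched genes past both thresholds upward and also of all 4 matched genes not called. A match is a run of letters and no measured binding site.

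The quasi-likelihood (QL) test of edgeR was run on the counts, with p-values adjusted by Benjamini and Hochberg's method over the 13497 genes that passed its filter on low counts. Levels are given as normalized CPM. Of the 59 rows, 27 passed the filter, 26 of them transporter genes. The adjusted p was under 0.05 for 21 of the 27 rows, with 73.4% of all genes tested past it. Of the 27 rows, 16 (59.3%) rose and 5 (18.5%) fell in KD, where 36.7% of all genes did so in each direction. With a fold change over 2 as well, 9 rows were called (20.2% of all genes), 8 of them upward (10.2% of all genes) and 1 downward (9.98%). Every KD library lay above every WT library for 15 rows and below for 5, as was the case for 37.8% of all genes in each direction. The median log2 fold change of the 27 was 0.35, and -0.0061 over all genes tested. Rows such as Slc43a3 and Slc6a5 passed the filter through the group in which they were high. Among the 21 rows with at least 10 counts in every library, 5 were past both thresholds upward (7.55% of all such genes) and 0 downward (7.68%), while by the adjusted p alone 13 of the 21 rose (37.7% of all such genes) and 4 fell (38.1%).

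All counts of the 55 transporter genes together came to 1943, 1941 and 1919 CPM in the WT libraries and 2741, 2733 and 2794 CPM in the KD libraries. The KD libraries all lay above the WT libraries, with means of 1934 ± 13.3 and 2756 ± 33.2 CPM (SD, n = 3 each). In bulk RNA, a change in RNA per cell and a change in the share of cells of a type cannot be told apart. The 12 transporter genes with the most counts held 93.8% to 94.4% of these counts in each library.

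**Figure D1:**
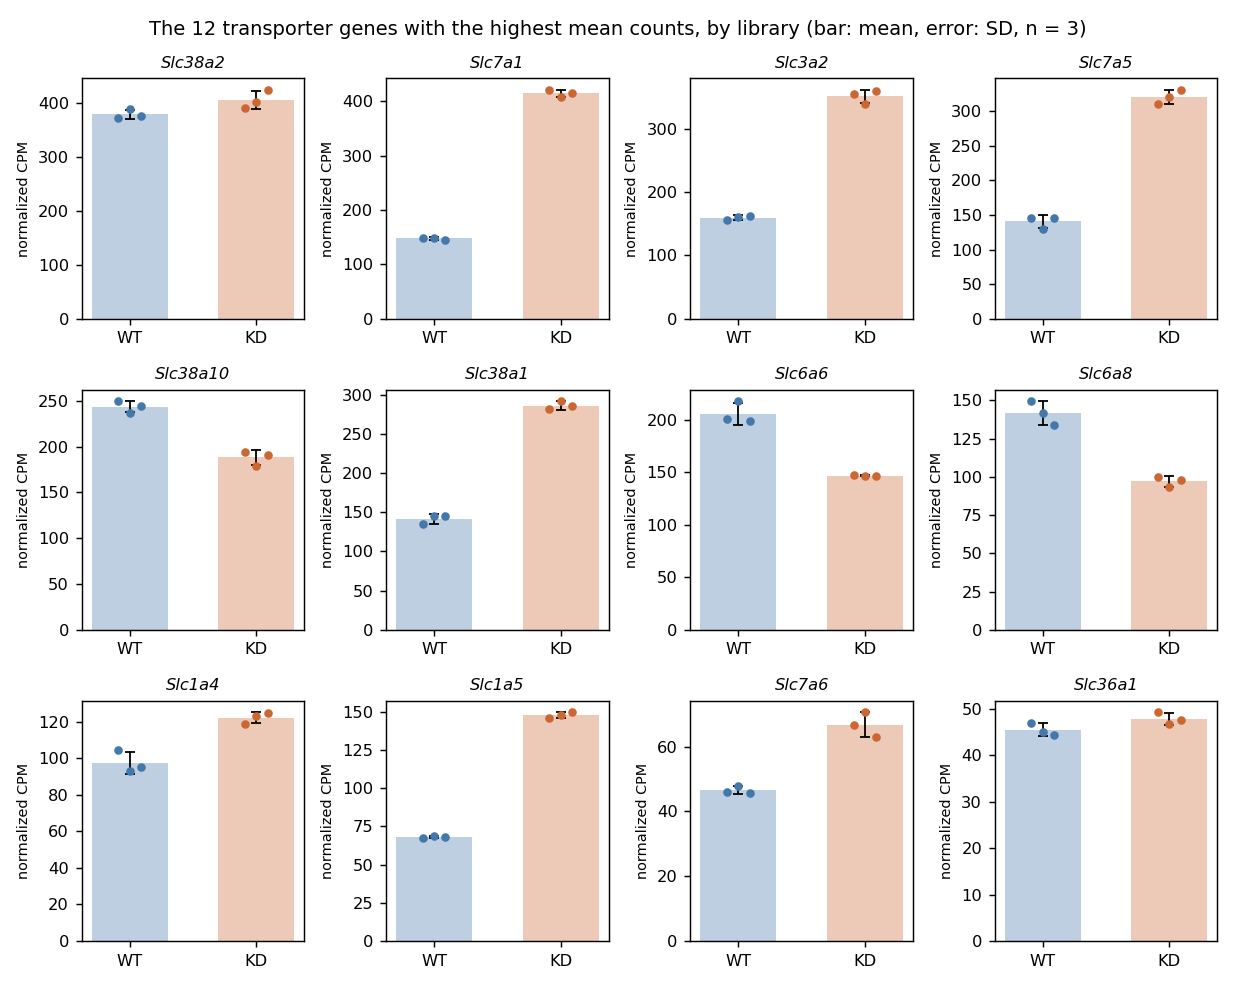
Normalized CPM of the 12 transporter genes with the highest mean counts in each library. The axis of each panel starts at 0, points are libraries, bars are means and error bars are SD (n = 3 libraries per group). Slc7a1, Slc3a2, Slc7a5, Slc38a1 and Slc1a5 lie at least 2-fold higher in KD, Slc38a2 and Slc36a1 change little, and Slc38a10, Slc6a6 and Slc6a8 lie lower in every KD library.

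The carrier with the largest change among the well counted genes was Slc7a1, the main importer of arginine and lysine. It stood at 149, 149 and 145 CPM in WT and at 420, 407 and 415.5 CPM in KD. All KD values exceeded all WT values, and the fitted change was 2.81-fold (log2 fold change 1.49 ± 0.03, where ± is the standard error here and beside every log2 fold change below, QL adjusted p = 1.28e-28). The other cationic carriers, Slc7a2, Slc7a3, Slc7a4 and the related Slc7a14, had between 0 and 14 counts in any library and were not tested.

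Slc3a2, the heavy chain (CD98) shared by most light chains, rose from 156, 161 and 162.5 CPM to 355, 340 and 360 CPM. The groups were far apart relative to their spread (log2 fold change 1.14 ± 0.04, QL adjusted p = 1.05e-24). Its partner in LAT1, Slc7a5, rose from 146, 130 and 146 CPM to 310, 321 and 331 CPM, a log2 fold change of 1.19 ± 0.04. The log2 ratio of Slc7a5 to Slc3a2 counts was -0.18 ± 0.11 in WT and -0.13 ± 0.06 in KD (SD, n = 3 each), a difference of 0.05 that lay within the replicate spread (exact permutation test, two-sided, p = 0.60, adjusted over 5 ratios p = 0.60). With 3 libraries in each group this test allows no p under 0.10.

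The other tested light chains that join Slc3a2, Slc7a6 and Slc7a7, had smaller fitted changes. The pairs of genes whose ratios are given were picked after their counts were seen. Slc7a6 (y+LAT2), which exchanges cationic for neutral amino acids, went from 46.2, 48.0 and 45.7 CPM to 66.8, 70.7 and 63.1 CPM. Its groups did not overlap (log2 fold change 0.52 ± 0.05, QL adjusted p = 1.93e-10). The log2 ratio of Slc7a6 to Slc3a2 counts fell by 0.62, from -1.78 ± 0.05 to -2.40 ± 0.12 (SD), without overlap, at the smallest p the exact permutation test allows (p = 0.10, adjusted p = 0.167). Slc7a7 (y+LAT1), of the same function, had 84, 71 and 56 counts in WT and 95, 143 and 122 counts in KD (log2 fold change 0.77 ± 0.26). Its log2 ratio to Slc3a2 overlapped between the groups (difference -0.37, exact permutation test p = 0.20, adjusted p = 0.25). Slc7a8 (LAT2) had 6, 8 and 6 counts in WT and 3, 2 and 4 in KD and was not tested. Slc7a6os, which neighbours Slc7a6 and encodes no transporter, also rose (log2 fold change 0.62). Because the use of strand in counting is not given in the sources used here, reads of such neighbours may not be fully separated.

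Slc1a5 (ASCT2), an exchanger known for glutamine uptake in tumour cells, rose as well. It measured 67.5, 68.9 and 67.9 CPM in WT and 146, 148 and 150 CPM in KD. The log2 fold change was 1.12 ± 0.04 (QL adjusted p = 1.93e-22). Its relative Slc1a4 (ASCT1), which prefers alanine, serine and cysteine, had a smaller fitted change, from 104, 93.0 and 95.1 CPM to 119, 123 and 125 CPM (log2 fold change 0.33). The log2 ratio of Slc1a5 to Slc1a4 counts went from -0.52 ± 0.10 to 0.27 ± 0.02 (SD), without overlap (difference 0.79, exact permutation test p = 0.10, the smallest possible). Of the glutamate carriers of the same family, Slc1a7 (EAAT5) fell from 273, 191 and 233 counts to 146, 157 and 170 counts. Its log2 fold change was -0.56 ± 0.17 (QL adjusted p = 0.004). Slc1a2, the main glutamate carrier of astrocytes, had 7 to 23 counts with overlapping groups.

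The SNAT family, sodium-coupled carriers of glutamine, alanine and other small neutral amino acids, did not move as 1 block. Slc38a1 (SNAT1) rose from 135, 145 and 145 CPM to 281, 292 and 286 CPM. The KD libraries all lay well above WT, with a log2 fold change of 1.02 ± 0.04 (QL adjusted p = 1.38e-22) so near the threshold of 2-fold that it fell under it with upper quartile scaling, with library totals alone and without WT replicate 1 (log2 fold changes of 0.97 to 1.00). Slc38a2 (SNAT2), the member known best for induction by amino acid starvation, had the highest counts of all and moved little, from 371, 388 and 376 CPM to 391, 402 and 423.5 CPM. This was past the threshold (log2 fold change 0.10 ± 0.03, QL adjusted p = 0.0105) but not with upper quartile scaling (adjusted p = 0.114) or without KD replicate 3 (adjusted p = 0.097). The log2 ratio of Slc38a1 to Slc38a2 counts went from -1.42 ± 0.05 to -0.50 ± 0.06 (SD), without overlap (difference 0.92, exact permutation test p = 0.10, adjusted p = 0.167).

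Slc38a10, a member of the same family with a little known function, fell from 250, 237 and 244 CPM to 194, 179 and 191 CPM. No KD library reached a WT library (log2 fold change -0.37 ± 0.04). Slc38a6 rose by 0.35 on the log2 scale with groups that overlapped (7.41, 8.69 and 7.99 CPM against 8.63, 10.8 and 11.3 CPM). Slc38a3 (SNAT3), known from liver and astrocytes, was not called on few counts (log2 fold change -0.62 ± 0.63). The lysosomal members were not called either. Slc38a9, which senses arginine in the lysosome for mTORC1, had 407, 438 and 420 counts in WT and 410, 442 and 321 in KD (log2 fold change -0.11 ± 0.12), and Slc38a7, which exports glutamine from lysosomes, had 642 to 713 and 688 to 763 counts (log2 fold change 0.12 ± 0.08). Slc36a1 (PAT1), a proton-coupled carrier of the lysosome, was likewise not called, at 47.1, 45.1 and 44.4 against 49.4, 46.7 and 47.8 CPM (log2 fold change 0.07 ± 0.06), nor was Slc36a4 (0.06 ± 0.14).

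Slc43a2 (LAT4), which lets large neutral amino acids leave the cell by facilitated diffusion, rose from 27.3, 26.3 and 28.0 CPM to 45.1, 40.2 and 37.5 CPM. All KD values lay above WT (log2 fold change 0.59 ± 0.07, QL adjusted p = 2.84e-09). Slc43a1 (LAT3) had 0 to 6 counts and was not tested.

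In family 6, both glycine carriers passed the filter on low counts. Slc6a9 (GlyT1), the widely expressed glycine carrier, rose from 35.9, 32.6 and 30.9 CPM to 56.4, 62.1 and 58.6 CPM (log2 fold change 0.83 ± 0.06, QL adjusted p = 3.60e-14). Slc6a5 (GlyT2), known from glycinergic neurons, was the only row past both thresholds downward, with 62, 67 and 77 counts in WT and 6, 2 and 5 counts in KD. It passed the filter on low counts only through the WT libraries, where it is high, and was not tested with at least 10 counts in every library, so its fitted value (log2 fold change -3.95 ± 0.50, QL adjusted p = 1.39e-08) is given as a description. Of 7 neuronal and glial markers found in the table, 2 were higher and 1 lower in every KD library, Rbfox3 had 0 or 1 counts and Syt1 0 to 6, and the summed level was 4.98 to 5.56 CPM in WT and 8.12 to 8.84 CPM in KD. Their part in the fall of Slc6a5 was not tested.

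Both well counted carriers of other cargo in family 6 fell. Slc6a6, the taurine carrier, went from 201, 218 and 199 CPM to 147, 147 and 146.5 CPM (log2 fold change -0.49 ± 0.04). Slc6a8, the creatine carrier, went from 150, 141.5 and 134 CPM to 100, 93.2 and 97.9 CPM (log2 fold change -0.55 ± 0.04). Neither overlapped between the groups. The adjusted p-values were 3.07e-13 and 3.74e-13 with the QL test. The serotonin carrier Slc6a4 had 5 to 20 counts and was not tested.

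**Figure D2:**
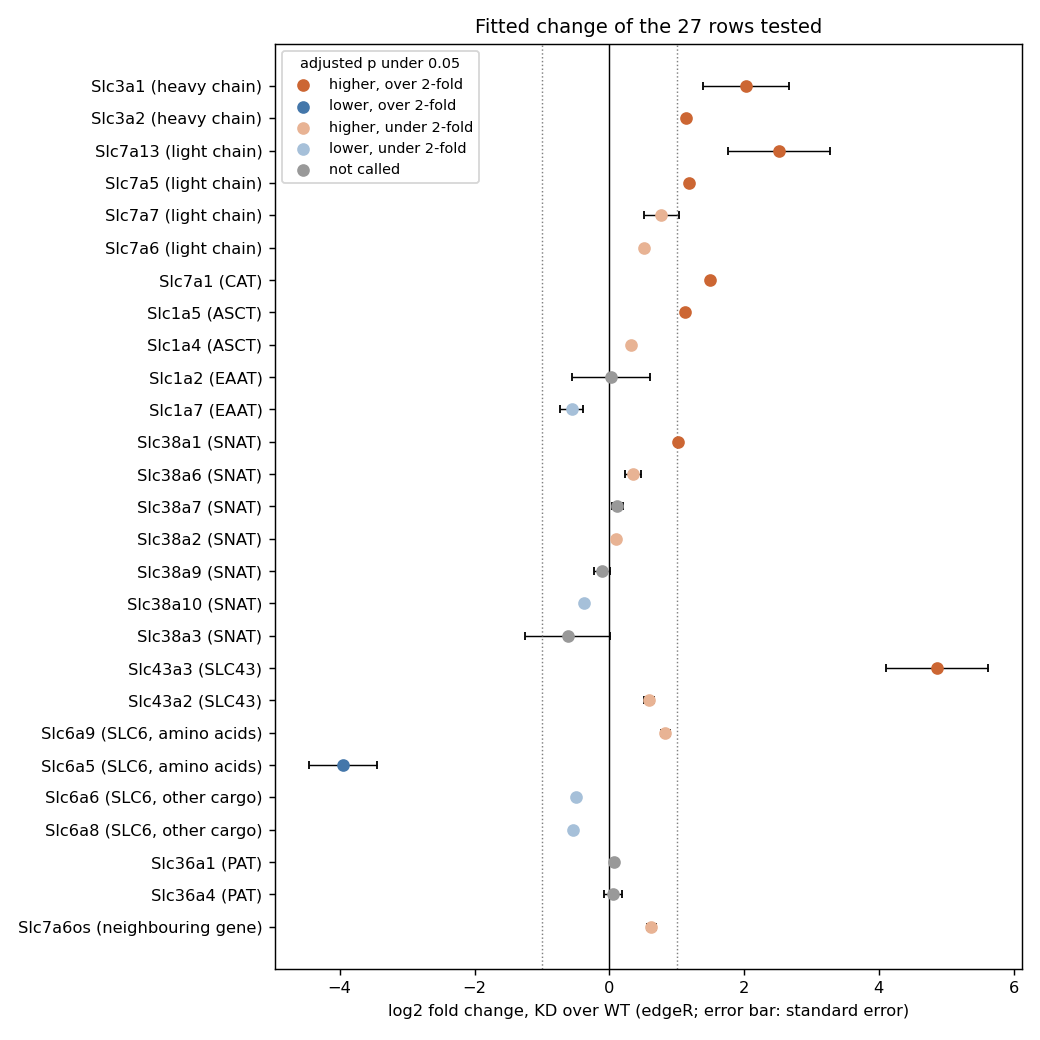
Fitted log2 fold changes (KD over WT) of the 27 rows tested, ordered by role, with standard errors. Dotted lines mark a fold change of 2, full colours mark rows past both thresholds and pale colours rows past the adjusted p alone. The rows with wide error bars, such as Slc43a3, Slc6a5, Slc7a13 and Slc3a1, have few counts.

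A second group of rows rose from almost no counts. Slc43a3, a purine base carrier of the LAT3 family, had 0, 1 and 2 counts in WT and 26, 30 and 42 in KD. The ratio of summed counts was 32.6, with an exact 95% interval of 10.8 to 160.9 that covers counting error only. Such ratios were computed only for genes picked for few counts in WT and more in KD. The ratio and its interval are therefore a description and no test of a rise. In the KD libraries 30 counts correspond to under 1 CPM, so the row stayed far below the well counted carriers in reads.

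Several of these rows are carriers known from the kidney tubule. Those tested, Slc3a1 and Slc7a13, passed the filter only through the KD libraries and were not tested with at least 10 counts in every library, so their fitted values are a description. Slc3a1 (rBAT), the heavy chain of the cystine carrier, had 9, 1 and 6 counts in WT and 33, 20 and 14 in KD (log2 fold change 2.03 ± 0.64, QL adjusted p = 0.00494). It was not past the threshold without WT replicate 2 (adjusted p = 0.0513). Slc7a13 (AGT1), a light chain that pairs with rBAT in the proximal tubule, had 4, 4 and 0 counts in WT and 23, 12 and 13 in KD (log2 fold change 2.52 ± 0.76, QL adjusted p = 0.00341). Slc6a18, a neutral amino acid carrier of the tubule, had 0 counts in all WT libraries and 11, 5 and 6 in KD. The KD mean was 2.43-fold a limit of 3 counts per WT library, a value that leaves out the counting error in KD. Cltrn, the collectrin protein that brings Slc6a18 and Slc6a19 to the membrane, had 0 counts in WT and 33, 18 and 16 in KD, with a KD mean 7.40-fold the same limit. Slc6a19 itself had 4, 4 and 4 counts and 17, 3 and 8 counts, which overlapped. Not every such carrier rose. Slc7a9 had 0 counts in all WT libraries and 0, 1 and 0 in KD, and Slc7a8, given above, was lower in every KD library.

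The rows that rose moved with the kidney markers, among which Kap, a rodent kidney gene, had 0 counts in WT and 466, 311 and 410 in KD, and Umod had 0 counts against 76, 93 and 112. The part of kidney RNA in them was not tested.

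Of the 29 transporter genes not tested, 8 had at most 3 counts in every library and none had more than 20 in any. For 6 of these 29 the lowest KD level in CPM exceeded the highest WT level, and for Slc7a8 the order was the opposite, against 8.68% and 6.63% of all untested genes with a count. The 6 were Slc1a1, Slc6a2, Slc6a12, Slc6a14, Slc6a18 and Slc7a4, of which Slc6a2 had 3 counts both in WT replicate 1 and in KD replicate 2 and so was apart only by the scaling. Slc6a12, the betaine carrier, had 1, 0 and 1 counts against 10, 10 and 15, and Slc6a14, a broad amino acid carrier of airway and gut, had 1, 0 and 0 against 13, 7 and 7. The ratio of summed counts was 17.5 (exact 95% interval 4.49 to 150) for Slc6a12 and 27 (4.44 to 1104) for Slc6a14. Both genes were picked for these ratios in the same way as Slc43a3, so the intervals describe counting error and test no rise. The lung markers given above moved in the same direction as Slc6a14, and their part was not tested.

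**Figure D3:**
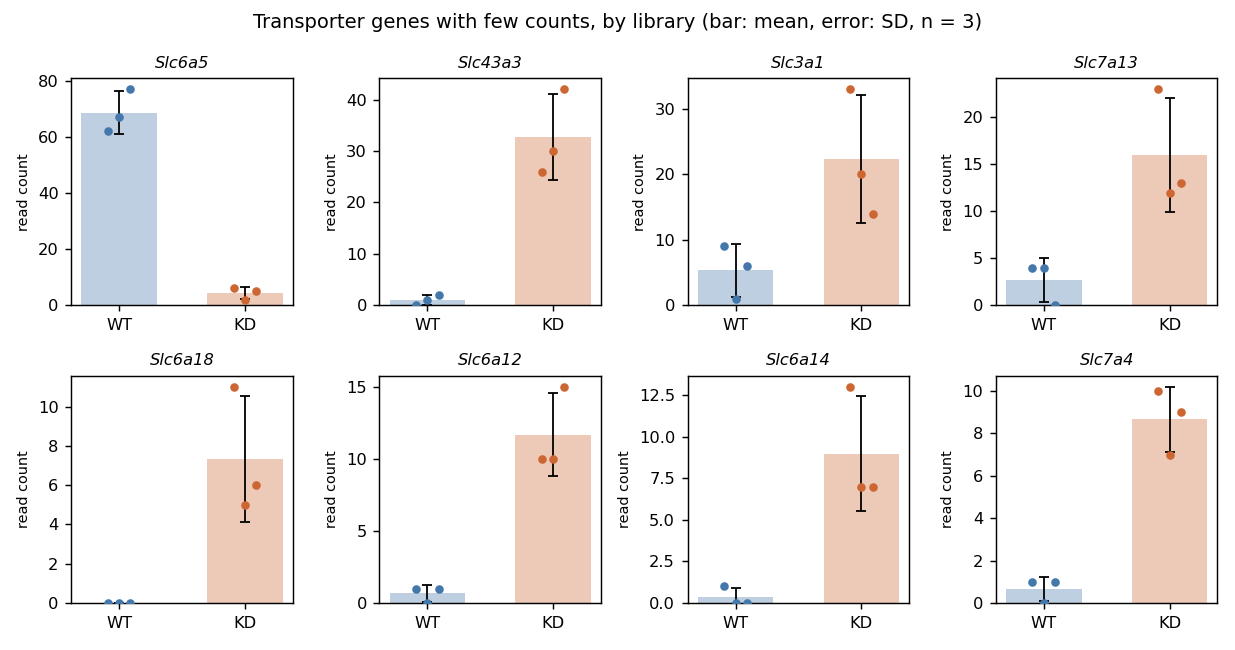
Read counts per library of 8 transporter genes with few counts, not scaled to library totals, with each axis starting at 0. Points are libraries, bars are means and error bars are SD (n = 3 libraries per group). Slc6a5 falls from 62 to 77 counts to 2 to 6 counts, and the other panels hold 9 counts or fewer in WT.

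The changes of these carriers were set beside lists of genes that work with them. In a list of 20 genes of the amino acid response, 18 were tested, of which 13 rose and 3 fell by the adjusted p, and their log2 fold changes had a median of 0.41. Over all genes tested, the shares were 36.7% in each direction and the median -0.0061. Asns, the asparagine synthetase and a classical target of ATF4, rose from 155.5 ± 9.45 to 322 ± 6.70 CPM (SD, n = 3 each). Its log2 fold change was 1.05 ± 0.04 (QL adjusted p = 1.50e-22). Atf5 and Atf3, transcription factors of the response, rose by 1.31 and 1.24 on the log2 scale. Atf4 itself, named after its values were seen, went from 347 ± 15 to 656 ± 4.23 CPM (log2 fold change 0.92), and Trib3, its target, rose by 0.96. The response was not uniform. Ddit4 fell by 1.44 on the log2 scale and Eif2ak4, which encodes GCN2, by 0.54. Ddit3 (CHOP) was past the threshold with overlapping groups (log2 fold change -0.17, QL adjusted p = 0.0311). The list's count of lower genes was 2 in place of 3 with DESeq2's Wald test and without WT replicate 1 or 3 or KD replicate 1 or 2. Among the regulators, Myc rose from 194 ± 6.97 to 368 ± 12.3 CPM (log2 fold change 0.92) and Sgk1, a kinase known to act on SNAT and other carriers, rose by 1.00, both named after their values were seen.

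In a list of 25 enzymes of glutamine, glutamate, aspartate, proline, arginine and branched-chain amino acids, 24 were tested. By the adjusted p, where 36.7% of all genes tested were called in each direction, 14 (58.3%) were higher and 5 (20.8%) lower. Past both thresholds were Ass1, which makes argininosuccinate from citrulline and aspartate (log2 fold change 1.57), Prodh, which oxidises proline (1.37), and Asns. The enzymes that fell included Bckdk, the kinase that restrains branched-chain breakdown (-0.66), and Bckdha, a subunit of the complex it acts on (-0.54), while Bckdhb, the other subunit of the same enzyme, rose (0.82). Among 25 carriers of other families, 16 were tested. Of these, 9 (56.2%) rose and 2 (12.5%) fell, beside the same 36.7% of all genes in each direction. Slc25a22, a mitochondrial glutamate carrier, rose by 1.40 and Mfsd12, a lysosomal cysteine importer, by 1.71. Ctns, which exports cystine from lysosomes, fell by 1.31. Sfxn3, a mitochondrial serine carrier, fell by 0.97.

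The list of amino acid sensing by mTORC1, the kinase complex that reads amino acid supply, held 33 tested genes, with 11 higher and 17 lower (median log2 fold change -0.15). Past both thresholds were Mlst8 (1.28) and Itfg2 (1.08) upward and Bmt2 (-1.03) and Castor1 (-1.01) downward. Bmt2 (SAMTOR) and Castor1 sense S-adenosylmethionine and arginine and restrain the complex when these are scarce. These genes were also grouped by role after the values were seen, so the counts are a description, beside 36.7% of all genes in each direction. All 4 genes of the kinase complex with its activator, Mtor, Rptor, Mlst8 and Rheb, rose. Of 6 genes for sensors that restrain it or for their relatives, 5 fell, namely Castor1, Castor2, Sesn1, Sesn3 and Bmt2. Sesn2 was not called. Of 7 tested Rag GTPases and Ragulator subunits, which bring the complex to the lysosome, 4 fell, namely Rraga, Lamtor1, Lamtor2 and Lamtor5, and Rragc rose. In GATOR2, which opposes GATOR1, Mios and Seh1l rose and Wdr24 and Wdr59 fell, and of the folliculin group Fnip1 and Fnip2 rose and Flcn fell. In the TSC complex, which holds back Rheb, Tsc1 and Tsc2 fell and Tbc1d7 was not called. GATOR1, which restrains the Rag GTPases, went both ways, with Depdc5 and Nprl2 lower and Nprl3 higher.

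In a list of 15 partners and regulators of transporters, 11 were tested, with 5 higher (45.5%) and 4 lower (36.4%), where 36.7% of all genes were called in each direction. Bsg, the chaperone of lactate carriers that is also found with CD98, fell from 936 ± 37.2 to 416 ± 16.9 CPM (log2 fold change -1.17), and Rnf5, a ubiquitin ligase known to degrade Slc1a5 and Slc38a2 proteins, fell by 1.14 on the log2 scale. Cltrn was past both thresholds upward, but with 0 counts in WT it passed the filter on low counts only through the KD libraries. Its call is therefore a description. With at least 10 counts in every library, 4 genes of the list were higher and 4 lower.

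**Figure D4:**
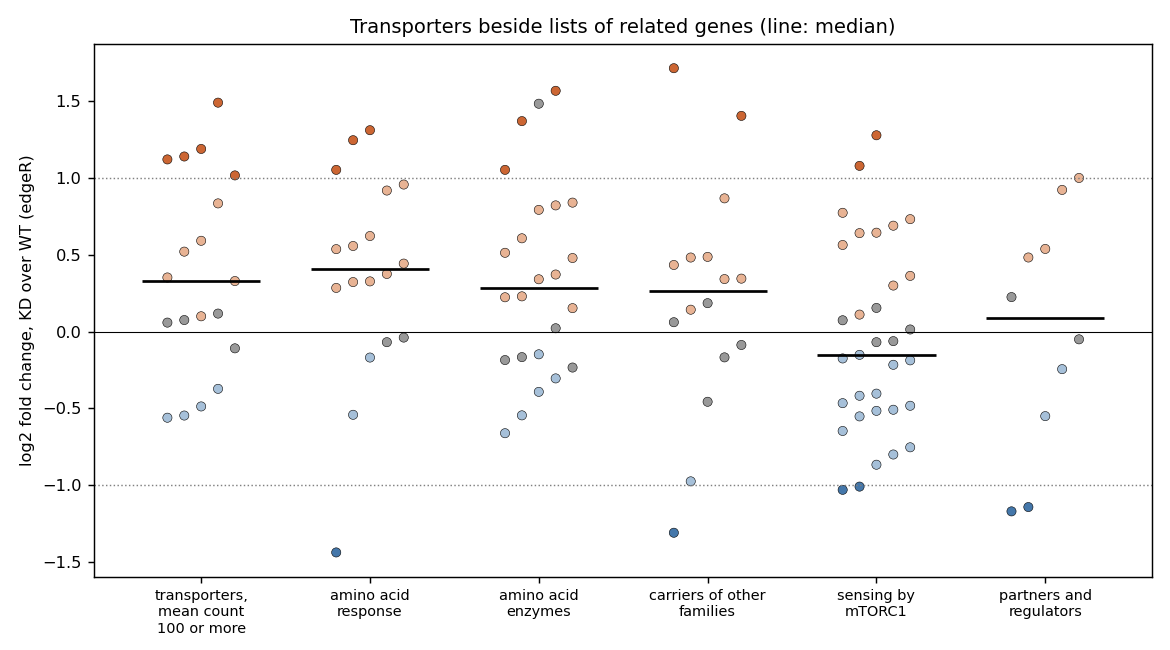
Fitted log2 fold changes (KD over WT) of the 19 tested transporter genes with a mean count of at least 100 and of the tested genes in 5 related lists, each point a gene and each line a median. Cltrn, with 0 counts in WT, is left out, colours are as in the plot of fitted changes, and dotted lines mark a fold change of 2. The medians are 0.33 for the transporters, 0.41 for the amino acid response and -0.15 for sensing by mTORC1.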

How the data were processed

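Per the labels and the paper's methods, the authors trimmed adapters, mapped reads with HISAT2 and deposited 1 table of raw counts for 22989 genes in 6 libraries. The methods name hg19 and the submitters' processing notes hg38, featureCounts and DESeq2, and the annotation and use of strand are not given in the sources used here. Each column was matched to its sample by its name, and columns not used numbered 0. Library totals lay between 36979221 and 38799331 counts, and a count of 0 allows up to 3 counts, for counting error only.

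The tests used edgeR 4.0.16 in R 4.3.3 (filterByExpr with minimum count 10 and total 15, TMM, quasi-likelihood test, group only), at the thresholds of the paper's methods, an adjusted p under 0.05 and a fold change over 2. The common biological coefficient of variation was 5.21%. Standard errors are the log2 fold change divided by the root of F. The pipeline was run on simulated data with 200 genes changed and the same dispersion for all genes. Far more genes were called in the real data, so this checks the code and not the calls. Alternatives were other scalings, other filters, each replicate left out, a replicate block, DESeq2 1.42.0 and a test against a fold change of 1.5. The chi-square per degree of freedom between libraries of a group was 3.88 to 7.60, above the 1 that sampling alone gives, so none was counted as a copy.

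Members, gene lists and tests were chosen with earlier results of these data known. Named are members past both thresholds, the 12 with the highest mean counts, members with 0 counts in a group and over 3 in each library of the other, and the 3 genes of each list with the smallest adjusted p each way past both thresholds. Other genes were named after their values were seen, to give each role. The marker lists not described in the text, for leukocytes and for endothelium and fibroblasts, had 4 of 11 and 2 of 8 genes higher in every KD library and 1 and 2 lower. Their summed levels rose from 71.9 to 86.0 CPM to 144 to 160 CPM and from 5.14 to 6.72 CPM to 59.4 to 62.7 CPM. Single genes carried most of both rises. S100a8 went from a mean of 33.0 to 95.2 CPM and Cdh5 from 0.22 to 57.8 CPM. Of the other tested endothelial and fibroblast genes, Pecam1, Col1a1 and Pdgfrb were not called and Dcn fell. Ptprc, Cd3e and Csf1r had 13 counts or fewer in every library.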

Additional observations from a re-analysis of the deposited data

How the results depend on the processing

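Of the transporter rows, 8 were past both thresholds upward. Without a filter on low counts there were 15, with DESeq2's Wald test 14, and with at least 10 counts in every library 5, a filter that removes rows with few counts in either group. The rows gained without the filter were Slc1a1, Slc6a2, Slc6a12, Slc6a14, Slc6a18, Slc6a20b and Slc7a4, all with 15 counts or fewer in any library. Downward there was 1 row, and 0 with at least 10 counts in every library. Leaving out single replicates, the counts ranged from 8 to 10 upward and from 1 to 2 downward, where the row added without WT replicate 2 was Slc6a4. The counts at an adjusted p under 0.05 alone stayed within 1.5 times the reported ones, and were 14 to 18 upward and 5 to 6 downward with a replicate left out. Against a fold change of 1.5, 9 rows were higher and 1 lower.

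For the 16 named members tested, 201 of 204 alternative log2 fold changes kept their direction and their side of the adjusted p threshold, and none reversed. The other 3 were Slc38a2 with upper quartile scaling and without KD replicate 3, and Slc3a1 without WT replicate 2. The cause was not tested. Slc38a1 kept its adjusted p but was under 2-fold with upper quartile scaling, with library totals alone and without WT replicate 1.

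With the replicate number as a block, 8 rows were higher and 1 lower past both thresholds, and 16 higher and 5 lower at the adjusted p alone. Deviations of libraries with the same number correlated between -0.0202 and 0.0135, and not every sample correlated best with its own number, so the samples share only a number.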
